A study of Sus scrofa with 6 samples.

Results

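Platelet-derived growth factors (PDGFs) and vascular endothelial growth factors (VEGFs), with their receptors, were examined in the abdominal aorta of Wuzhishan pigs, a Chinese miniature breed. Members were chosen by gene symbol: PDGFA, PDGFB, PDGFC, PDGFD, PDGFRA, PDGFRB, VEGFA, VEGFB, VEGFC and FLT1. Of these 10 symbols, 9 named a row among the 30477 genes measured, each a single row, and VEGFB named none. Male pigs ate normal chow (NC group, n = 3) or a diet rich in fat, cholesterol and fructose (HFCF group, n = 3) for 6 months, and RNA of the abdominal aorta was sequenced from 1 library per pig. The labels give an age of 3 to 4 months and the methods an older age at acquisition. No genetic change or drug is named for either group, so diet was the labelled difference between them. Each group is thus 3 animals of a single sex and breed. How the adventitia and the fat around the vessel were trimmed is not given in the sources used here.

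The PDGF ligands are secreted as dimers of A, B, C or D chains. The A and C chains act mainly through the receptor PDGFRA and the B and D chains mainly through PDGFRB, both receptor tyrosine kinases. In vessel walls endothelial cells, platelets and macrophages are known sources of PDGF-B, while smooth muscle cells and pericytes carry PDGFRB and fibroblasts carry PDGFRA. VEGFA is the main growth factor of endothelium and is induced by low oxygen; its signalling receptor is KDR, and FLT1 binds VEGFA, VEGFB and placental growth factor tightly and acts in part as a decoy. VEGFC acts mainly on the lymphatic receptor FLT4.

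Levels are given as FPKM, fragments scaled to exon length and to the mapped reads of the library, a per-length unit in which genes can be set side by side. FPKM summed to between 272207 and 287141 in the NC libraries and between 330222 and 338690 in the HFCF libraries. Read totals were not used here. Relative depth was taken as the most common gene-by-gene ratio of NC pig 1 to each library, over single-transcript genes with low values in both. It was 1 to 1.37 in the NC pigs and 1.03 to 1.07 in the HFCF pigs. Fold changes were fitted with limma on log2(FPKM + 0.1), for the 15384 genes that averaged at least 0.1 FPKM, a scale that understates the change of low genes, and p-values were adjusted over all of them by the Benjamini-Hochberg method. A gene was called at an adjusted p under 0.05. The median log2 fold change over all tested genes was 0.32, so a gene at 0 on this scale stood below most of the others, and with median-ratio scaling that median was -0.01. Whole tissue was sequenced, and fewer cells of a type and less RNA per cell cannot be told apart. Every marker list contained detected genes, and the 9 contractile smooth muscle markers summed to between 8051 and 22553 FPKM in each pig, as the tissue label says.

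Among the 9 measured members PDGFB and VEGFA were higher in the HFCF group, PDGFA was lower, and 6 did not pass the test. All 9 passed the filter on low values. Over all tested genes 28.9% were called, 22.8% as higher and 6.16% as lower, so 3 calls among 9 members was near the background share. With each of the 3 other scalings (median-ratio, quantile and TPM) the split was 1 higher (VEGFA) and 2 lower (PDGFA and PDGFC), and PDGFB was not called. Where group means had to differ by a ratio above 2 or below 0.5 at an unadjusted p under 0.05, the thresholds stated in the methods, PDGFB, PDGFD and VEGFA were higher and none was lower, against 20.7% and 4.82% of all tested genes. The groups did not overlap for 3 members that were higher in every HFCF pig (PDGFB, PDGFD and VEGFA) and for 2 that were lower in every one (PDGFA and PDGFC). Over all tested genes 48.2% did not overlap, 36.1% as higher and 12.1% as lower. The median log2 fold change of the members was 0.41, which is 0.09 above that of all tested genes.

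**Figure D1:**
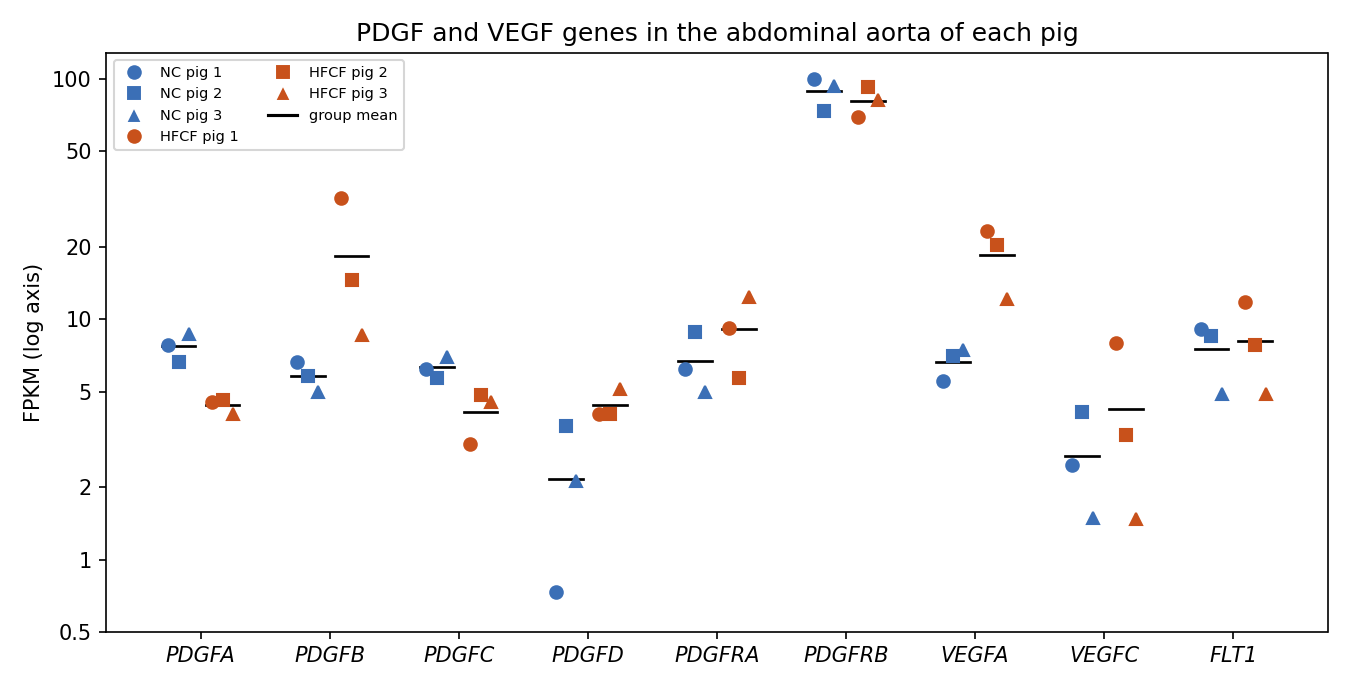
FPKM of the 9 measured members in each pig, on a log axis, with circles, squares and triangles for pigs 1, 2 and 3 of each group and bars for the group means. PDGFB, PDGFD and VEGFA of the HFCF pigs lie above those of all NC pigs, PDGFA and PDGFC lie below, and PDGFRB stands far above the other members in both groups.

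Among the 4 PDGF ligands the A chain fell and the B chain rose, while C and D did not pass the test. PDGFA (ENSSSCG00000007541), the A chain made by smooth muscle and many other cells, measured 7.83, 6.64 and 8.69 FPKM in NC pigs 1, 2 and 3 and 4.54, 4.61 and 4.04 FPKM in HFCF pigs 1, 2 and 3. All HFCF pigs were below all NC pigs, and the HFCF values lay close to each other. The mean fell from 7.72 ± 1.03 to 4.40 ± 0.31 FPKM (mean ± SD, n = 3 per group here and throughout), a log2 fold change of -0.79 with a standard error of 0.17 (95% interval -1.20 to -0.38, limma adjusted p = 0.0161). Relative to the median of all tested genes the log2 change was -1.11. The call was lost without NC pig 1 (limma adjusted p = 0.0563), and over 15 alternatives the adjusted p ran from 0.00556 to 0.0584 with the direction kept.

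PDGFB (ENSSSCG00000033327), the B chain that recruits mural cells, measured 6.61, 5.81 and 4.96 FPKM in the NC pigs and 32.1, 14.5 and 8.60 FPKM in the HFCF pigs. The HFCF pigs were all higher but differed widely, with pig 1 far above pigs 2 and 3. The mean rose from 5.79 ± 0.82 to 18.4 ± 12.2 FPKM, a ratio of 3.17, and the log2 fold change was 1.45 with a standard error of 0.44 (95% interval 0.41 to 2.49, limma adjusted p = 0.0467). The call lay just inside the threshold and held in 4 of 15 alternatives, with limma adjusted p from 0.0173 to 0.200 and a log2 fold change from 0.95 to 1.89. The lowest of these, 0.95 (adjusted p = 0.0505), was the value without HFCF pig 1. Leaving out NC pig 1, NC pig 2, NC pig 3 or HFCF pig 2 also ended it, with limma adjusted p of 0.107, 0.108, 0.119 and 0.0900. Without HFCF pig 3 the log2 fold change was 1.89 (adjusted p = 0.0173). The call was also lost with median-ratio scaling, quantile normalization and as TPM, with limma adjusted p of 0.105, 0.105 and 0.0876.

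PDGFC (ENSSSCG00000024960), whose product is cut free from a CUB domain before it binds PDGFRA, measured 6.24, 5.72 and 6.98 FPKM in the NC pigs and 3.01, 4.83 and 4.53 FPKM in the HFCF pigs. Every HFCF value was below every NC value. The means were 6.31 ± 0.63 and 4.12 ± 0.97 FPKM, and the log2 fold change of -0.63 (SE 0.22, 95% interval -1.15 to -0.10) did not pass the adjustment (limma adjusted p = 0.0750). It passed with the 3 other scalings, which bring the median of all genes closer to 0: -0.98 with median-ratio scaling (adjusted p = 0.0230), -1.04 with quantile normalization (0.0323) and -0.89 as TPM (0.0373), out of a range of 0.0230 to 0.175 over 15 alternatives.

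PDGFD (ENSSSCG00000014994), also released from a CUB domain and a ligand of PDGFRB, measured 0.736, 3.60 and 2.13 FPKM in the NC pigs and 4.02, 4.04 and 5.14 FPKM in the HFCF pigs. The groups did not overlap, but NC pig 2 came close to the lowest HFCF value and NC pig 1 was far below both other NC pigs. The means were 2.16 ± 1.43 and 4.40 ± 0.64 FPKM, with a log2 fold change of 1.23 (SE 0.51, 95% interval 0.03 to 2.43, limma adjusted p = 0.112). Over 15 alternatives the log2 fold change ran from 0.64 (limma adjusted p = 0.186), without NC pig 1, to 1.71 (adjusted p = 0.0472), without NC pig 2, the only alternative in which it passed the threshold, and the adjusted p from 0.0472 to 0.344.

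Neither PDGF receptor passed the test. PDGFRB (ENSSSCG00000022741), the receptor of mural cells, was by far the most abundant member, above 96.9% of all tested genes by mean FPKM. It measured 100.3, 73.9 and 93.3 FPKM in the NC pigs and 69.4, 92.8 and 81.7 FPKM in the HFCF pigs. The groups overlapped over most of their ranges. The means were 89.2 ± 13.7 and 81.3 ± 11.7 FPKM, and the log2 fold change was -0.13 with a 95% interval of -0.55 to 0.29 (SE 0.18, limma adjusted p = 0.610).

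PDGFRA (ENSSSCG00000008841), the receptor of fibroblasts and their precursors, measured 6.20, 8.85 and 5.0 FPKM in the NC pigs and 9.17, 5.72 and 12.4 FPKM in the HFCF pigs. HFCF pigs 1 and 3 were above all NC pigs and HFCF pig 2 lay among them. The means were 6.68 ± 1.97 and 9.11 ± 3.36 FPKM, with a log2 fold change of 0.41 (SE 0.33, 95% interval -0.37 to 1.19, limma adjusted p = 0.382). In the RefSeq gene order of assembly Sscrofa11.1, PDGFRA is followed by KIT and then KDR, genes of related receptors.

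Of the VEGF ligands VEGFA rose, while VEGFC did not pass the test. VEGFA (ENSSSCG00000001695) measured 5.54, 7.04 and 7.42 FPKM in the NC pigs and 23.3, 20.3 and 12.1 FPKM in the HFCF pigs. The lowest HFCF pig was well above the highest NC pig. The mean rose from 6.67 ± 0.996 to 18.6 ± 5.79 FPKM, a ratio of 2.79, with a log2 fold change of 1.42 (SE 0.27, 95% interval 0.79 to 2.05, limma adjusted p = 0.00995) and 1.10 relative to the median of all tested genes. The call held in 14 of 15 alternatives (limma adjusted p between 0.00596 and 0.0589) and was lost where all 30477 genes were tested without a filter.

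VEGFC (ENSSSCG00000015770), the lymphatic growth factor, measured 2.48, 4.11 and 1.49 FPKM in the NC pigs and 7.93, 3.30 and 1.47 FPKM in the HFCF pigs. HFCF pig 1 stood above all others, while HFCF pig 3 was the lowest of the 6. The log2 fold change was 0.44 with a wide 95% interval of -1.02 to 1.89 (SE 0.62, limma adjusted p = 0.625), and it was -0.16 without HFCF pig 1 and -0.04 with quantile normalization. A VEGFB level cannot be given with certainty. One row (ENSSSCG00000013038) is described as VEGFB, but the gene ID table used here pairs that identifier with DNAJC4. It measured 25.4, 24.6 and 24.4 FPKM in the NC pigs and 27.6, 42.3 and 38.7 FPKM in the HFCF pigs, and it was left out of all counts.

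**Figure D2:**
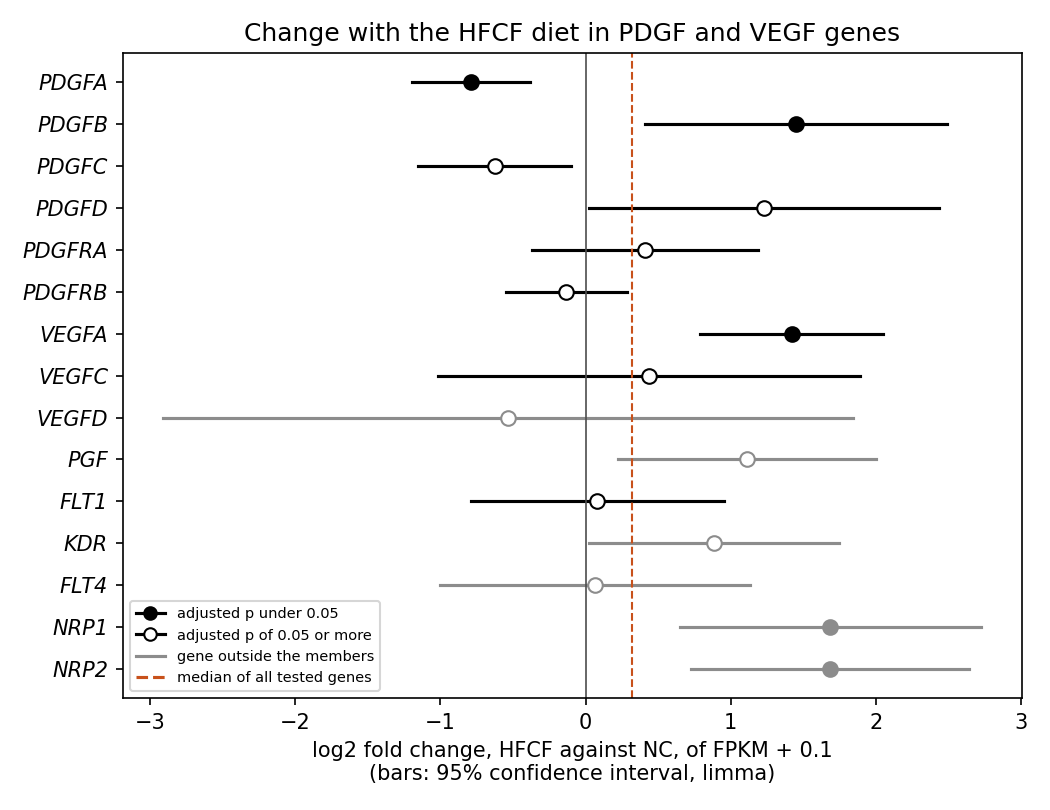
Log2 fold change (HFCF against NC) of the 9 measured members (black) and 6 other VEGF family genes (grey) on the log2(FPKM + 0.1) scale, with points for the limma estimate, filled where the adjusted p was under 0.05, bars for the 95% interval and a dashed line at 0.32, the median of all tested genes. The intervals of PDGFA, PDGFB, PDGFC, PDGFD and VEGFA exclude 0 before adjustment, and those of PDGFRA, PDGFRB, VEGFC and FLT1 span it.

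FLT1 (ENSSSCG00000009320), the VEGF receptor with a soluble form, measured 9.08, 8.51 and 4.89 FPKM in the NC pigs and 11.8, 7.81 and 4.88 FPKM in the HFCF pigs. Both groups covered nearly the same range. The log2 fold change was 0.08 (SE 0.37, 95% interval -0.79 to 0.95, limma adjusted p = 0.888), and its sign turned with each of the 3 other scalings, where it was -0.27, -0.22 and -0.18, and without NC pig 3 (-0.20) or HFCF pig 1 (-0.23).

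Of the 6 other VEGF family genes the 2 neuropilins, co-receptors of VEGF and of semaphorins, rose, and KDR, FLT4, PGF and VEGFD did not pass the test. NRP1 (ENSSSCG00000011102) measured 3.31, 2.99 and 2.83 FPKM in the NC pigs and 15.1, 4.63 and 14.3 FPKM in the HFCF pigs, a log2 fold change of 1.69 (SE 0.44, limma adjusted p = 0.0289). NRP2 (ENSSSCG00000026383) measured 2.34, 2.43 and 2.13 FPKM against 14.6, 6.75 and 4.45 FPKM, also 1.69 (SE 0.41, limma adjusted p = 0.0222). The NC values of both genes lay close together, and the HFCF values were spread widely. The call of NRP1 held in 6 of 15 alternatives (limma adjusted p from 0.00393 to 0.141) and that of NRP2 in 10 of 15 (0.0137 to 0.114). Among libraries left out in turn, NRP1 was still called only without HFCF pig 2, and NRP2 lost its call without any of the 3 NC pigs, with limma adjusted p up to 0.0824 and 0.0737.

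KDR (ENSSSCG00000008844), the main signalling receptor of VEGFA, measured 2.45, 2.93 and 2.11 FPKM in the NC pigs and 8.24, 3.86 and 3.15 FPKM in the HFCF pigs. Its groups did not overlap, and the log2 fold change was 0.88 (SE 0.37, limma adjusted p = 0.111). PGF, placental growth factor and a ligand of FLT1, measured 5.49, 2.01 and 2.57 FPKM against 6.17, 5.73 and 8.65 FPKM, a log2 fold change of 1.11 (limma adjusted p = 0.0641). VEGFD, a ligand of FLT4, ranged from 0.886 to 9.57 FPKM in the NC pigs and from 0.768 to 6.91 FPKM in the HFCF pigs. FLT4 ranged from 2.28 to 3.45 FPKM and from 1.29 to 4.38 FPKM, and both overlapped (limma adjusted p = 0.720 and 0.927).

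Levels fell in a wide order. In the NC group PDGFRB (89.2 FPKM) stood apart from the rest, followed by PDGFA, FLT1, PDGFRA, VEGFA, PDGFC and PDGFB between 7.72 and 5.79 FPKM, each overlapping with its neighbour in that order. VEGFC (2.69 FPKM) and PDGFD (2.16 FPKM) came last, below PDGFB in every pig and overlapping with each other. In the HFCF group PDGFRB again stood apart. It was followed by VEGFA (18.6 FPKM), PDGFB (18.4 FPKM), PDGFRA and FLT1 with overlapping ranges, and then by PDGFA, PDGFD, VEGFC and PDGFC between 4.40 and 4.12 FPKM, whose ranges also overlapped. PDGFA thus passed from the second place in the order to the sixth, and PDGFB from the seventh to the third.

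In the KEGG annotation deposited with the values, 8 of the 9 members carried the MAPK, Ras, Rap1, PI3K-Akt and focal adhesion pathways, through which receptor tyrosine kinases are known to act. PDGFB carried no KEGG pathway there. PDGFA and VEGFA carried the pathway of fluid shear stress and atherosclerosis, and VEGFA and FLT1 that of HIF-1 signalling.

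The make-up of the PDGF ligand pool was read within each pig as a share of the summed FPKM of the 4 ligands. The B chain made up 30.9%, 26.7% and 21.8% of it in the NC pigs against 73.5%, 51.8% and 38.6% in the HFCF pigs. The A chain made up 36.6%, 30.5% and 38.2% and then 10.4%, 16.5% and 18.1%. Every HFCF pig thus had a larger B share and a smaller A share than every NC pig. The C chain share was 28.7% ± 2.22 in the NC group and 14.8% ± 7.02 in the HFCF group, without overlap, and the D chain share was 9.78% ± 6.56 and 15.5% ± 6.97, with overlap. The sum itself was 21.4, 21.8 and 22.8 FPKM in the NC pigs and 43.6, 28.0 and 22.3 FPKM in the HFCF pigs, so that HFCF pig 3 had a changed make-up at an NC-like sum. These shares rest on FPKM that fix each gene as part of its library, and a rise in 1 share lowers the others.

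For the VEGF ligands VEGFA, VEGFC, VEGFD and PGF the sum was 19.1, 22.7 and 12.4 FPKM in the NC pigs and 40.2, 30.1 and 29.1 FPKM in the HFCF pigs. VEGFA made up 29.0%, 31.0% and 60.0% of it and then 57.9%, 67.4% and 41.6%, with overlap between groups. Of the summed receptors and co-receptors FLT1, KDR, FLT4, NRP1 and NRP2, FLT1 made up 44.0%, 44.4% and 34.3% in the NC pigs against 21.7%, 32.1% and 16.1% in the HFCF pigs. The FLT1 share was lower in every HFCF pig while its own level overlapped, and the sum of the 5 genes was 18.0 ± 3.35 FPKM in the NC group against 36.3 ± 15.8 FPKM in the HFCF group.

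**Figure D3:**
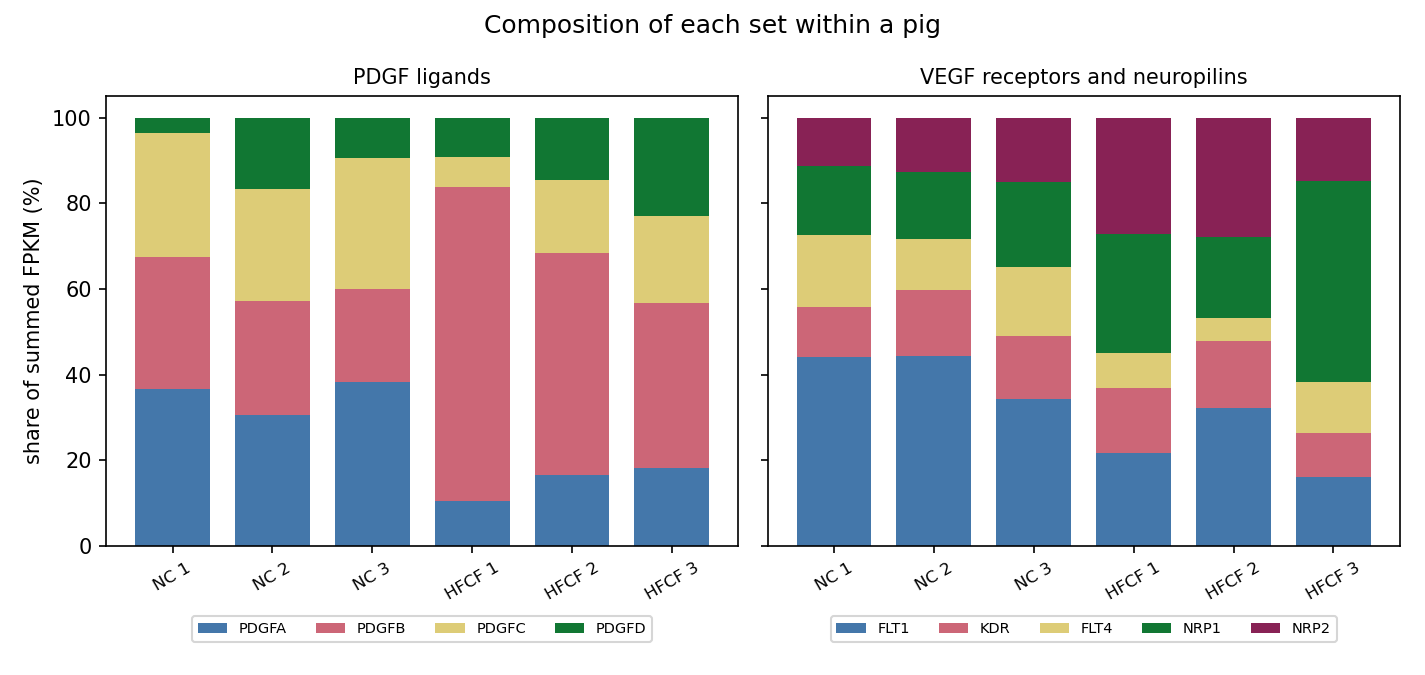
Share of each gene in the summed FPKM of the PDGF ligands (left) and of the VEGF receptors with the neuropilins (right), in percent, as 1 stacked bar in each panel for each of the 6 pigs. The PDGFB share is larger in each HFCF pig (38.6% to 73.5%) than in each NC pig (21.8% to 30.9%), and the FLT1 share is smaller (16.1% to 32.1% against 34.3% to 44.4%).

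Ratios of 2 genes within a pig do not depend on the library's scaling, apart from the pseudocount, and 7 were compared with exact two-sided permutation tests over the 6 pigs, for which p = 0.1 is the smallest value possible. The log2 ratio of PDGFA to PDGFB was 0.24, 0.19 and 0.80 in the NC pigs against -2.79, -1.63 and -1.07 in the HFCF pigs, a difference of -2.24. That of PDGFC to PDGFD differed by -1.86 (1.75 ± 1.14 in the NC group, -0.11 ± 0.33 in the HFCF group), and by -1.27 without NC pig 1. In both pairs the chain named first, a PDGFRA ligand, was lower relative to the other chain in every HFCF pig than in every NC pig. PDGFA and PDGFC were each lower, and PDGFB and PDGFD each higher, in every HFCF pig. These ratios therefore had to separate, and they add no test to those of the single genes. The log2 ratio of PDGFB to its receptor PDGFRB was higher by 1.58 (-3.92 ± 0.28 in the NC group, -2.34 ± 1.10 in the HFCF group), again without overlap, and by 0.97 without HFCF pig 1.

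For the VEGF genes the log2 ratio of VEGFA to FLT1 was -0.70, -0.27 and 0.59 in the NC pigs against 0.98, 1.37 and 1.29 in the HFCF pigs, a difference of 1.34. That of FLT1 to KDR was 1.51 ± 0.34 in the NC group and 0.71 ± 0.26 in the HFCF group, a difference of -0.80. Transcripts of VEGFA were thus higher relative to FLT1, and those of FLT1 lower relative to KDR, in every HFCF pig than in every NC pig. These 5 ratios had an exact permutation p = 0.1, and 0.14 after adjustment over the 7. Over single tested genes 48.2% did not overlap between groups, and the share among pairs of other genes was not computed. The ratios of VEGFA to VEGFC (difference 0.99, exact p = 0.2) and of PDGFRA to PDGFRB (0.54, exact p = 0.3) overlapped between groups. The direction of each ratio was kept in all 9 alternatives.

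Markers of several cell types differed between the groups. All 10 macrophage markers rose, and their summed level was 36.3 to 41.3 FPKM in the NC pigs and 1206, 524 and 494 FPKM in HFCF pigs 1, 2 and 3. Of the 9 contractile smooth muscle markers 6 fell and none rose (limma, adjusted p under 0.05), with sums of 15724 to 22553 FPKM against 8051 to 12821 FPKM. Of the 7 pericyte markers CSPG4 and MCAM fell, with sums of 1016 to 1578 FPKM against 470 to 712 FPKM. HFCF pig 1 had the highest macrophage sum and the lowest smooth muscle sum. It also had the highest PDGFB, VEGFA, VEGFC, FLT1, KDR, FLT4, NRP1 and NRP2. PDGFD, PDGFRA and PGF were highest in HFCF pig 3, and PDGFA, PDGFC, PDGFRB and VEGFD were highest in an NC pig.

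Of the 9 endothelial markers with a row 1 fell (ESAM) and 8 did not pass the test, with sums of 267 to 388 FPKM in the NC pigs and 188 to 357 FPKM in the HFCF pigs. Of the 8 adventitial fibroblast markers LUM rose and 7 did not pass, with sums of 2982 to 5172 FPKM against 3038 to 5441 FPKM. Platelets carry PDGF in their granules. None of the 4 platelet markers with a row passed the test, with sums of 11.0 to 11.4 FPKM against 9.39 to 17.2 FPKM. The 6 adipocyte markers did not pass either (37.6 to 297 FPKM against 88.5 to 133 FPKM), and of the 4 lymphatic endothelial markers CCL21 rose, with sums of 57.8 to 66.5 FPKM against 103 to 305 FPKM. No marker with a row was listed at 0 in all 6 pigs. The part of these cell types in the changes of the members was not tested.

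Members were next set against the mean log2 level of such markers within a pig, in 9 comparisons with the same exact test. PDGFB relative to endothelial markers was higher in every HFCF pig, by 1.61 on the log2 scale, whereas FLT1 relative to the same markers differed by 0.24 with overlap (exact p = 0.3). PDGFB was not set against macrophage markers, although macrophages are also a known source of PDGF-B. The log2 fold change of PDGFB was 1.45, and the median of the macrophage markers was 3.85. PDGFRB relative to contractile smooth muscle markers was higher in every HFCF pig, by 1.04, and relative to pericyte markers by 0.66. The receptor's own level overlapped between the groups while the sums of both marker lists were lower in every HFCF pig. PDGFA relative to smooth muscle markers differed by 0.38 with overlap (exact p = 0.3).

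Relative to adventitial fibroblast markers PDGFD was higher by 1.01 without overlap. That difference was 0.39 without NC pig 1, and with a pseudocount of 1 it was 0.66 with overlap (exact p = 0.2). PDGFRA differed by 0.19 with overlap (exact p = 0.5). Relative to macrophage markers VEGFA was lower by 2.26 in every HFCF pig compared with every NC pig, on the log2 scale, and PDGFC differed by -4.30 (-3.69 without HFCF pig 1 and -3.62 with a pseudocount of 1). The log2 fold change of VEGFA was 1.42, and the median of the 10 macrophage markers was 3.85. Each of these markers was higher, and PDGFC lower, in every HFCF pig than in every NC pig. The PDGFC comparison therefore had to separate, and its p-value is no further test. Comparisons without overlap had an exact permutation p = 0.1, the smallest possible, and 0.15 after adjustment over the 9. How often other genes would separate in such comparisons was not computed.

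**Figure D4:**
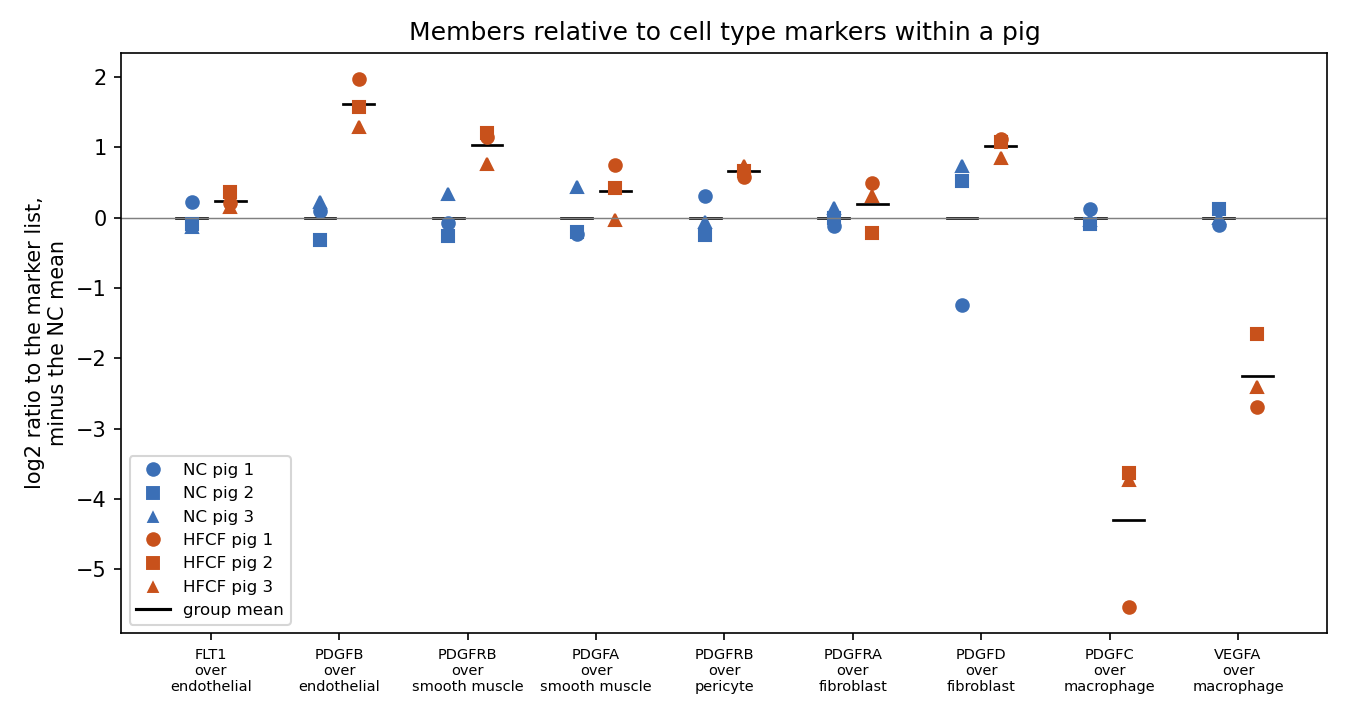
Log2 ratio of each member to the mean log2 level of a marker list in the same pig, with the NC mean subtracted, for 9 pairs of member and list. Symbols stand for pigs and bars for group means. The HFCF pigs lie above the NC pigs for PDGFB over endothelial markers (by 1.61 on average) and PDGFRB over smooth muscle markers (by 1.04), and below them for PDGFC and VEGFA over macrophage markers. PDGFB over macrophage markers was not compared.

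For each called member the 2 genes with the most similar profile over the 6 pigs were sought among 10499 genes with a symbol and a mean of at least 1 FPKM, by the root mean square distance of their centred log2 values. For PDGFA these were TRIM47 (distance 0.06 log2 units) and UNKL (0.06). For PDGFB they were PCK2 (0.11), a mitochondrial gluconeogenic enzyme, and PIK3CD (0.12), the leukocyte isoform of phosphoinositide 3-kinase. For VEGFA they were PRKD3 (0.12), a protein kinase D, and RASA2 (0.12), a GTPase-activating protein of Ras. The closest of 10499 profiles over 6 pigs are near by selection. How many other genes lay almost as near was not counted, and a shared cell source was not tested.

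In 9 lists of other genes of the pathway, 93 of 97 genes had a row and were tested, of which 19 rose, 9 fell and 65 did not pass the test. Their median log2 fold change was 0.36, or 0.04 above that of all tested genes, whose called shares were 22.8% and 6.16%. The counts given below for each list are small and are to be read beside these shares. The split turned with the scaling, to 9 higher and 17 lower with median-ratio scaling, 6 and 13 with quantile normalization and 11 and 14 as TPM. None of the 28 called genes changed direction over the alternatives, 11 stayed called with any 1 library left out, 13 with all 3 other scalings, and 6 in every alternative: KITLG, CSF1R, SHB, SPRED2, MAPK3 and AKT2. Of the called genes described here, NRP1, NRP2, FLT3LG, PIK3CA, PIK3CB, PTPN2, EGLN1, EGLN3, ANGPT1, ANGPT2 and SDC2 lost their call with at least 1 of those scalings. PGF, FLT3LG, SHB and EGLN1 were identified only through the gene ID table that pairs the row described as VEGFB with DNAJC4.

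None of the 4 genes that process PDGF ligands passed the test. Among 8 related class III receptors and ligands 3 rose and none fell. KITLG, the ligand of KIT, rose from 1.0 ± 0.13 to 5.99 ± 2.12 FPKM (log2 fold change 2.42, limma adjusted p = 0.00217). CSF1R, the receptor that marks and sustains macrophages, rose from 9.49 ± 0.92 to 60.4 ± 29.3 FPKM (2.56, limma adjusted p = 0.00257), beside the macrophage markers given above. The row read as FLT3LG, which acts on blood cell precursors, rose from 152.6 ± 14.6 to 259.7 ± 21.6 FPKM (0.77, limma adjusted p = 0.0104). It was named through the gene ID table alone, so its identity is less certain. With median-ratio scaling or as TPM FLT3LG lost its call, with a log2 fold change down to 0.41 (limma adjusted p = 0.0878, out of 0.00858 to 0.0878 over 15 alternatives).

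Of 33 adaptors and effectors downstream of the receptors 6 rose and 5 fell. SHB, an adaptor that binds PDGF and VEGF receptors, fell from 29.6 ± 2.23 to 9.51 ± 0.62 FPKM, with a log2 fold change of -1.63 (limma adjusted p = 0.000903). The catalytic subunits of phosphoinositide 3-kinase PIK3CA (1.43, limma adjusted p = 0.0469) and PIK3CB (1.34, limma adjusted p = 0.0153) rose. PIK3CA lost its call without any 1 pig other than NC pig 3 (adjusted p up to 0.116) and PIK3CB without NC pig 1 (0.0529).

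Of 13 genes that restrain receptor signalling 1 rose and 2 fell. SPRED2, an inhibitor of the Ras and MAP kinase cascade, fell from 9.03 ± 1.78 to 3.05 ± 0.70 FPKM (-1.54, limma adjusted p = 0.00527). PTPN1, a phosphatase of receptor tyrosine kinases, fell from 15.7 ± 2.48 to 5.79 ± 3.29 FPKM (-1.55, limma adjusted p = 0.0207), and its call was lost without NC pig 1, NC pig 2, HFCF pig 1 or HFCF pig 2 (adjusted p up to 0.0795). The related PTPN2 rose by 0.72 on the log2 scale (limma adjusted p = 0.0408), a call that leaving out any of the 6 libraries ended (up to 0.113).

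Of 8 oxygen-sensing genes upstream of VEGFA 2 rose and 1 fell. EPAS1, the hypoxia-inducible factor subunit abundant in endothelium, fell from 315.6 ± 36.5 to 175.4 ± 27.3 FPKM (-0.85, limma adjusted p = 0.0131), a call lost without NC pig 1 (0.0559). EGLN3, a prolyl hydroxylase and itself a hypoxia-induced gene, rose from 2.37 ± 0.30 to 6.70 ± 3.19 FPKM (1.37, limma adjusted p = 0.0205), a call lost without NC pig 1 or NC pig 2 (up to 0.0751). EGLN1 rose by 0.53 on the log2 scale (limma adjusted p = 0.0476), and was called in 1 of the 6 fits with a library left out, that without NC pig 3 (the others up to 0.136). HIF1A, the other main subunit, overlapped between the groups at 22.8 ± 6.73 and 28.8 ± 1.87 FPKM (0.38, limma adjusted p = 0.264).

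Of 5 genes of the angiopoietin and TIE system 2 rose. ANGPT2, released by activated endothelium, rose from 1.65 ± 0.56 to 4.62 ± 1.40 FPKM (1.44, limma adjusted p = 0.0201), a call lost without NC pig 2, HFCF pig 1 or HFCF pig 2 (up to 0.0579). ANGPT1, the ligand of TEK made by mural cells, was low, at 0.252 and 1.04 FPKM (1.57, limma adjusted p = 0.0338), and was called in 1 of the 6 fits with a library left out, that without HFCF pig 2 (the others up to 0.0909). The remaining 3 genes did not pass the test.

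Of 7 measured endothelial VEGF response genes 2 rose. APLN, the apelin precursor of endothelial tip cells, was 0.146 ± 0.154 FPKM in the NC group against 2.46 ± 2.09 FPKM in the HFCF group (3.17, limma adjusted p = 0.0189), a call lost without NC pig 1 or NC pig 3 (up to 0.0733). Its NC values lay near the pseudocount of 0.1, and its log2 fold change ran from 1.42 to 4.02 over 15 alternatives. CXCR4, which leukocytes also express, was 1.88 ± 1.05 FPKM against 96.0, 18.1 and 20.8 FPKM in HFCF pigs 1, 2 and 3 (4.20, limma adjusted p = 0.00612). HFCF pig 1 was thus far above the others for CXCR4 and for the macrophage markers alike.

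Of 9 measured matrix and soluble binders of PDGF or VEGF 1 rose and 1 fell. HSPG2, the basement membrane proteoglycan perlecan, fell from 233.6 ± 56.1 to 129.7 ± 29.2 FPKM (-0.84, limma adjusted p = 0.0415). SDC2, a cell surface heparan sulfate proteoglycan, rose from 22.4 ± 2.62 to 38.9 ± 9.94 FPKM (0.77, limma adjusted p = 0.0314). The call of HSPG2 was lost without NC pig 1, NC pig 3, HFCF pig 1 or HFCF pig 3 (up to 0.137), and that of SDC2 without NC pig 1, NC pig 2, HFCF pig 1 or HFCF pig 2 (up to 0.104).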

How the data were processed

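Total RNA of the abdominal aorta of 6 pigs was sequenced as paired-end reads, 1 library per pig. The submitters' processing notes name cutadapt 1.9, FastQC and HISAT2, and the methods name StringTie and an earlier pig genome build than the RefSeq gene table used here (Sscrofa11.1), so no coordinates are given. The authors deposited FPKM per gene, with 0.0001 standing for 0. FPKM scale each library to its own total, so a large change in some genes shifts the others.

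FPKM were analysed with limma 3.58.1 in R 4.3.3 (a model of diet alone, a variance trend in eBayes, pseudocount 0.1, genes averaging 0.1 FPKM or more, adjusted p under 0.05), after the script had been tested on simulated data. No count test was used because no counts were analysed. Intervals are at the 95% level, and the spread among 3 pigs per group sets the precision. The members and lists were chosen with earlier results of these data known. In each pathway list the called genes were named, at most 4 by size of change, and all of the VEGF family list; 1 gene that this rule names is not reported here. AKT1, LRP1, APLNR, SDC4, EGFL7 and PF4 had no row. PGF, FLT3LG, SHB, EGLN1, PIK3R2 and PDPN lacked a row under their symbol and were found through the gene ID table. That table is the one that pairs the row described as VEGFB with DNAJC4. EGLN2 was found through its NCBI gene ID. The planned ratio of VEGFA to VEGFB was not computed, because the VEGFB row is uncertain. KEGG pathways deposited with the values were read but not tested. The alternatives changed the pseudocount (1 or 0.01), the filter (none, or an average of 1 FPKM or more), the scaling (median-ratio, quantile or TPM) and the trend of eBayes (none), or used a replicate block, each library left out and the fold thresholds of the study.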

Additional observations from a re-analysis of the deposited data

How the results depend on the processing

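With 3 pigs per group, limma called 2 members higher and 1 lower. The count of higher members was 1 with a pseudocount of 1, with median-ratio scaling, with quantile normalization, as TPM and without an eBayes trend, 0 without a filter on low values, and 1 to 2 with a library left out. Without NC pig 2 the higher members were VEGFA and PDGFD. Among the fits with a library left out, PDGFB was called only without HFCF pig 3. Without the filter 30477 genes were tested. The count of lower members was 2 with each of the 3 other scalings, 0 with the replicate block, 0 with the fold thresholds of the study and 0 to 1 with a library left out; those thresholds gave 3 higher members. Of the pathway list genes 19 were higher: 7 without a filter, 9 with median-ratio scaling, 6 with quantile normalization, 11 as TPM, 12 with the replicate block and 10 to 18 with a library left out. Of these genes 9 were lower: 5 without a filter, 17 with median-ratio scaling, 14 as TPM, 4 with the replicate block and 4 to 8 with a library left out. The median log2 fold change of all genes was -0.01 with median-ratio scaling, -0.08 with quantile normalization and 0.07 as TPM, against 0.32. The sign of FLT1 turned with median-ratio scaling (-0.27), quantile normalization (-0.22), as TPM (-0.18), without NC pig 3 (-0.20) and without HFCF pig 1 (-0.23), and that of VEGFC with quantile normalization (-0.045) and without HFCF pig 1 (-0.16), with log2 fold changes of -0.23 to 0.40 for FLT1 and -0.16 to 1.02 for VEGFC over the libraries left out. The cause of each shift was not tested. Deviations of same-numbered pigs correlated at 0.02, -0.08 and -0.07 across genes, so the numbers were not read as pairs. With the replicate block limma gave PDGFA an adjusted p of 0.0584. Relative depth was estimated and read totals were not used, so the counting error of a single low value cannot be given.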
